A study of Mus musculus with 4 samples.

Results

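The genes described here encode proteins of the extracellular matrix and the membrane proteins that hold cells to it and to each other: collagens, laminins, fibulins, syndecans, integrins, cadherins, protocadherins and contactins. They were taken from the array annotation by gene symbol, as all spots with 1 annotated symbol that began with Col plus a number and a, Lama, Lamb, Lamc, Itga, Itgb, Cdh plus a number, Pcdh, Fbln, Sdc or Cntn. This gave 136 of 16281 spots and 117 of 10698 genes. The rule reads symbols and no values, but it was written with earlier results of these data known. The set held 37 collagens, 10 laminins, 4 fibulins, 4 syndecans, 12 integrin α subunits, 11 genes with an integrin β symbol, 17 cadherins, 15 protocadherins and 7 contactins or contactin-associated proteins. A few symbols matched without being adhesion receptors, such as Itgb1bp1, Itgb1bp2 and Itgb3bp, which encode proteins first named for binding an integrin tail.

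RNA came from the CA1 field of the hippocampus of young male C57BL/6J mice. In the conditioned group (MK C+S), mice received MK-801, a blocker of the NMDA type of glutamate receptor, 1 h before contextual fear conditioning, in which 2 min in a chamber ended with a foot shock of 1 s at 0.5 mA and the sequence was given for 3 shocks in all. The control group (MK) received the same drug without conditioning, and its RNA was taken at matching times, so both groups carried the drug. The labelled dose is 300 µg per g body weight, far above usual doses, and is printed as labelled. Sampling followed the last shock by 1, 2, 4 and 6 h, with 1 array of 2 dyes per time, MK C+S in red and MK in green on each, and how many animals stand behind an array was not found in the labels.

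The matrix of the adult brain is unusual in holding little fibrillar collagen. Collagens and laminins are concentrated in the basement membranes of vessels and in the meninges, while the space between neurons is filled mostly by hyaluronan and proteoglycans. Integrins are pairs of an α and a β subunit that bind matrix ligands, and cadherins, protocadherins and contactins join membranes at synapses and along axons, where several are needed for synaptic plasticity. Syndecans are transmembrane heparan sulphate proteoglycans that act beside integrins, and fibulins link basement membrane and elastic fibre proteins.

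Values are log10 ratios of a spot or the mean of a gene's spots, after each array was centred on its median. The log base and the direction of the ratio are not stated. A base of 10 was assumed from the range of the values, and the folds given assume it. Where 4 values follow each other, they belong to 1, 2, 4 and 6 h in that order. A positive value is read as higher RNA in MK C+S, which is likely from the dyes in the labels. All arrays had 1 dye orientation, so conditioning and dye cannot be told apart. No time had a replicate array, so a value at 1 time has no replicate error. The only error within an array was the spread between different spots of a gene, with a pooled SD over these genes of 0.226, 0.134, 0.239 and 0.431 at 1, 2, 4 and 6 h. A value of exactly 0 was read as not measured, and such values took 22.7% of spots at 1 h and 7.39% at 4 h. Of the 117 genes, 98, 108, 110 and 112 were measured at 1, 2, 4 and 6 h, and 84 on all 4 arrays. In such tissue samples fewer cells of a type and less RNA per cell cannot be told apart, and the ratios alone do not allow the CA1 label to be checked.

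Promoter windows are given for 4 genes, as 2 examples of related genes that differed on these arrays. Col4a1 and Col4a2 encode the chains of the main basement membrane collagen and are transcribed in opposite directions from annotated starts 21 bases apart, which overlap, and capitals mark the 78 bases that both windows share, read on opposite strands. Sdc1 and Sdc4 lay on opposite sides of 0 at 4 and 6 h, and capitals mark each GC box (GGGCGG, searched on both strands). The windows run from 250 bases before to 50 bases after the start in RefSeq, build GRCm38.p6, and lie at chr8:11312777-11313076 on the minus strand, chr8:11312555-11312854 on the plus strand, chr12:8771146-8771445 on the plus strand and chr2:164443139-164443438 on the minus strand.
Col4a1: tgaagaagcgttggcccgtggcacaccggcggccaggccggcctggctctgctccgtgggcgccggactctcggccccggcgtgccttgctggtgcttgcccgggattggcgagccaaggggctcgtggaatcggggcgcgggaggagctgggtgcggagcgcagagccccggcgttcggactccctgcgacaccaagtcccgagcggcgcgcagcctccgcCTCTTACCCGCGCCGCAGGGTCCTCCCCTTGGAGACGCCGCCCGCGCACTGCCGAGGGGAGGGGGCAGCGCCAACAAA
Col4a2: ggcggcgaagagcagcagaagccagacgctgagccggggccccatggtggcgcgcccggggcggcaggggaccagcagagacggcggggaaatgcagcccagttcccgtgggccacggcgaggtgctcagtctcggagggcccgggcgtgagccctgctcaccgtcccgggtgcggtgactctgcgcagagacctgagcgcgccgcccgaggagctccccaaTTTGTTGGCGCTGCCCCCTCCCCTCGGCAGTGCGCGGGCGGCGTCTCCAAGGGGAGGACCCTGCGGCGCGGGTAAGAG
Sdc1: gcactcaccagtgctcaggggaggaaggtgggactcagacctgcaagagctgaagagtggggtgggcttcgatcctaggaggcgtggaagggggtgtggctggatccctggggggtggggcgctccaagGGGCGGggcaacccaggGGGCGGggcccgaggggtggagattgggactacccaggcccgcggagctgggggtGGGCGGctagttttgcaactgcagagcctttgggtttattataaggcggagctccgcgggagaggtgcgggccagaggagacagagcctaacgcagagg
Sdc4: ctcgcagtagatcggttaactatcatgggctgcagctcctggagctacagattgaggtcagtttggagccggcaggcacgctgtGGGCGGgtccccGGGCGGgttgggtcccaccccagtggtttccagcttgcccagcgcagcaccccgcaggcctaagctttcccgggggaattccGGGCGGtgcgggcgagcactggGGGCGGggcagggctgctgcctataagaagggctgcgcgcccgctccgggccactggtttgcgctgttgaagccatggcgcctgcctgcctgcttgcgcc

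The Sdc1 window held 3 GC boxes and the Sdc4 window 4. Of the 117 genes, 73 had a window in the RefSeq table, and 52.05% of those windows held a GC box. Among the 27025 windows of all genes in that table, which are not limited to genes of the array, 35.91% did. The windows of these genes were also richer in G and C, with a median of 59% against 52.7%. The cyclic AMP response element TGACGTCA was in 1.37% of the windows of these genes and in 1.876% of all. The AP-1 motif TGANTCA was in 2.74% and 7.933%, CCAAT in 34.25% and 37.92%, and TATAAA in 8.219% and 14.16%, in the same order, each searched on both strands. These matches describe letters in the windows and no binding was measured.

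At 1 and 2 h few of these genes were far from a ratio of 1, and most of those lay on the positive side, while at 4 and 6 h more were far from it and most lay on the negative side. At 1 h, 11 of 98 were at 2-fold or more in either direction, which is 0.301 log10 units (11.2%, against 8.47% of all genes), 7 of them positive (5.12% of all genes) and 4 negative (3.35% of all genes). At 2 h there were 10 of 108 (9.26%, against 6.58% of all genes), with 8 positive (2.44% of all genes) and 2 negative (4.14% of all genes). At 4 h the count was 18 of 110 (16.4%, against 7.07%), with 5 positive (2.49% of all genes) and 13 negative (4.58% of all genes). At 6 h it was 39 of 112 (34.8%, against 21.9%), with 14 positive (10.2% of all genes) and 25 negative (11.7% of all genes). The share of these genes at 2-fold was thus above that of all genes on each array, while on the negative side it was below that of all genes at 2 h and above it at 1, 4 and 6 h. The median of the 117 genes stayed close to that of all genes, at 0.00392, 0.0568, 0.015 and -0.033 at 1, 2, 4 and 6 h, against 0.0013, -0.000738, -0.000952 and -0.00618.

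**Figure D1:**
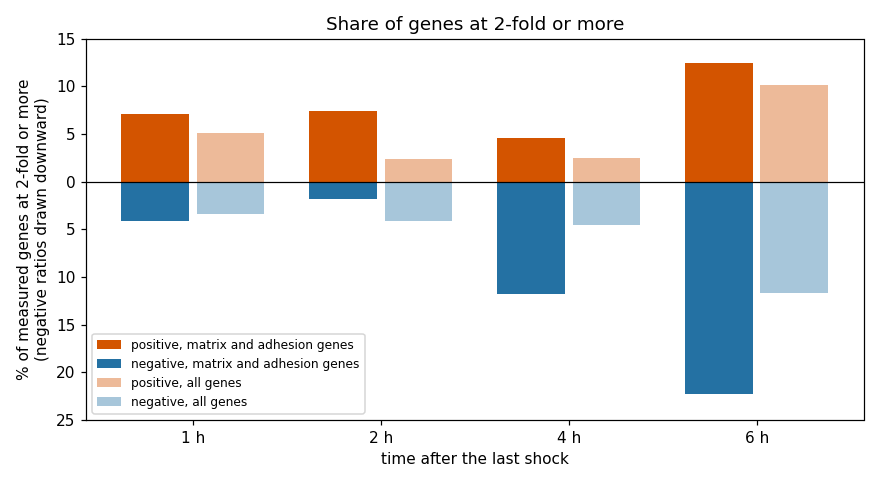
Share of measured genes at 2-fold or more on each array (y axis, % of measured genes, positive log10 ratios of MK C+S over MK drawn upward and negative ones downward) by time after the last shock, for the matrix and adhesion genes (dark bars) and all genes (pale bars). At 4 and 6 h the dark bars reach furthest on the negative side, with 13 of 110 and 25 of 112 genes.

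Most of the genes that were 2-fold negative at 4 h, as means of their spots, were so again at 6 h. Of 107 matrix and adhesion genes measured at both 4 and 6 h, 11 were at 2-fold or more negative at both (10.3%, against 2.24% of all genes measured at both). They were 84.6% of the 13 genes that were 2-fold negative at 4 h and 45.8% of the 24 at 6 h, whereas for all genes the overlap was 222 of 435 at 4 h and 19.9% of 1113 at 6 h. The 11 were Cdh15, Cntnap4, Col2a1, Col4a4, Fbln2, Itga2b, Itga6, Itga8, Lama4, Lama5 and Sdc1, while Col4a1 and Pcdh1 were past 2-fold at 4 h alone of these times. No spot of Itga8 was 2-fold negative at both times, as spot 16774 was at -0.39 and 0.109 at 4 and 6 h. Its spot 10698 was measured at 6 h only, at -1.1. Itga2b was negative through spot 17513, while its spot 4521 was at 0.133 and 0.0136. Col2a1 and Fbln2 have their spots in the run of low rows named below. Across genes, the 4 and 6 h values of this set had a Pearson r of 0.655 and a Spearman rho of 0.649 (107 genes). Over all genes the r was 0.347 and the rho 0.336. The 2 and 4 h values of this set had an r of 0.605 and a rho of 0.343 (103 genes), against 0.356 and 0.304 over all genes. By rank the set thus lay close to all genes at 2 and 4 h. Without spots 15669 to 15873, the run of 200 table rows with most low values, the r of this set was 0.614 and 0.535 in the same order. The arrays share spots and dye orientation, and genes are not independent replicates.

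The 37 collagens leaned to the positive side at 2 h and spread widely in both directions at 6 h. Their median was -0.0268, 0.127, 0.0867 and 0.00208 at 1, 2, 4 and 6 h, with positive values in 14 of 31, 24 of 31, 21 of 36 and 18 of 35. The median was smaller with zeros kept as a ratio of 1, at 0.0686 at 2 h, and with the running median over neighbouring spots removed, at 0.0631 at 2 h and 0.0341 at 4 h, and as a mean over genes it was 0.0239 at 4 h. At 2 h 3 of 31 collagens were 2-fold positive (2.44% of all genes) and 0 negative (4.14% of all genes). At 6 h 6 of 35 were positive (10.2% of all genes) and 6 negative (11.7% of all genes). Among the fibrillar collagens, which form the ropes of connective tissue, 8 of 9 were positive at 2 h, with a median of 0.127, and 4 of 10 at 6 h, with a median of -0.195.

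Col5a2, a chain of the type V collagen that joins type I fibrils, lay at 0.0768, 0.404, 0.19 and 0.208 at 1, 2, 4 and 6 h. It was positive on every array and past 2-fold at 2 h. Col2a1, the fibrillar collagen of cartilage, lay at -0.182, 0.0689, -0.354 and -0.786, which is negative at all times but 2 h and past 2-fold at the later times. Its spot lies in the run of low rows 15669 to 15873. Col27a1, another fibrillar chain, lay at -0.335, 0.253, -0.0587 and 0.167 and so was past 2-fold at 1 h alone. Col1a2, a type I chain, was at 0.123, 0.127, -0.00762 and -0.539, within 2-fold until 4 h and 3.46-fold negative at 6 h.

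The type IV collagens of basement membranes did not lie together. Col4a1 was at -0.143, 0.19, -0.421 and -0.143 at 1, 2, 4 and 6 h, and Col4a2, whose promoter window overlaps that of Col4a1, was at 0.419, 0.0357, 0.0793 and -0.179. The pair thus had opposite signs at 1 and 4 h, with 1 array behind each value. Col4a4, a chain known from the kidney filter, was at -0.0268, 0.162, -0.324 and -0.345 and passed 2-fold on the negative side at 4 and 6 h. Col4a6, not measured at 1 h, was at -0.0479, 0.112 and 0.565 at 2, 4 and 6 h.

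Collagens outside these families gave the widest values at 6 h. Col14a1, which coats fibrils, was at 0.0473, 0.177, 0.168 and 0.797 at 1, 2, 4 and 6 h, positive on each array and 6.26-fold at 6 h. Col6a1, a chain of the beaded type VI filaments, lay at 0.262, -0.239 and -1.23 at 2, 4 and 6 h, a ratio 16.8-fold negative at the last time, while its partner chains Col6a2 and Col6a3 were at 0.233 and 0.326 at 6 h. Chains of type VI collagen therefore had opposite signs on that array. Col25a1, a transmembrane collagen of neurons, was at 0.0137, -0.0121 and 0.781 at 1, 4 and 6 h, and Col13a1, another transmembrane collagen, was at 0.355, 0.185, 0.0902 and 0.0606. Col25a1 was past 2-fold at 6 h alone, whereas Col13a1 was highest at 1 h and positive throughout. Col7a1, the collagen of anchoring fibrils in skin, was at -0.257, 0.498, 0.389 and 0.528, with 3 positive values past 2-fold. Col8a1, a network collagen of vessel walls, was at 0.564, 0.111 and 0.235 at 1, 4 and 6 h.

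Laminins are trimers of an α, a β and a γ chain, and on the later arrays most α chains lay below 0 and most β and γ chains above it. The α chains were positive in 4 of 5, 3 of 5, 1 of 5 and 1 of 5 at 1, 2, 4 and 6 h, with a median of 0.109, 0.0651, -0.192 and -0.324. The β and γ chains were positive in 1 of 2, 4 of 5, 4 of 4 and 4 of 5, with a median of -0.0283, 0.0336, 0.131 and 0.159. The median at 6 h is the value of Lamc3, which was at -0.0633, -0.0313, 0.00808 and 0.159 as the mean of 2 spots. These had opposite signs on each array, with spot 9898 at 0.0974, 0.0141, -0.0163 and -0.0701 and spot 13685 at -0.224, -0.0767, 0.0324 and 0.387. Lama5, an α chain of the basement membrane of mature vessels, was at 0.168, 0.0699, -0.338 and -0.603. Lama4, the other main vascular α chain, was at 0.109, -0.17, -0.402 and -0.496. Both were positive at 1 h and at 2-fold or more negative at 4 and 6 h. Lama2, the α chain of muscle and of the outer vascular basement membrane, was at 0.338, 0.1, 0.0676 and -0.222, past 2-fold at 1 h. Lama1 was at -0.324 at 6 h, and Lama3, at 0.184, was the 1 α chain that was positive then. Lamb2 and Lamb3 were at 0.339 and 0.334 at 6 h, each just past 2-fold, and neither was measured at 1 h. Lamc1, the γ chain of most laminins, was at 0.00671, 0.141 and -0.141 at 1, 2 and 6 h, the 1 β or γ chain that was negative at 6 h. Markers of endothelial and mural cells, the cells that lie on these membranes, were positive in 4 of 12, 3 of 12, 2 of 12 and 4 of 12, and their part in the laminin values was not tested.

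The 4 fibulins lay far apart, and Fbln2 had the lowest mean among the 84 genes measured on all 4 arrays. Fbln2, which binds laminin and fibronectin, was at -0.791, -0.564, -1.58 and -1.23 at 1, 2, 4 and 6 h, past 2-fold on the negative side on all 4 arrays, by 38.4-fold at 4 h. Fbln1, its closest relative, was at -0.0882, 0.0265, 0.178 and 0.714, 5.17-fold positive at 6 h. Fbln7 was at -0.221, -0.0858, -0.0415 and -0.215, negative on each array without reaching 2-fold. Fbln5, which is needed for elastic fibres, lay between -0.0827 and 0.0719. The opposite signs of Fbln1 and Fbln2 at 6 h left a class median of -0.149, which describes neither. Each of the 4 genes was read from 1 spot, and that of Fbln2 lies in the run of low rows 15669 to 15873.

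Among the syndecans, Sdc1 and Sdc4 lay on opposite sides of 0 at the later times. Sdc1, the syndecan of epithelia and plasma cells, was at 0.0827, -0.173, -0.529 and -1.13 at 1, 2, 4 and 6 h, lower at each later time. Sdc4, which sits with integrins in focal adhesions, was at 0.0075, 0.131, 0.577 and 0.363, past 2-fold on the positive side at 4 and 6 h. The gap between them was thus widest on the last array, while at 1 h both were close to 0. Sdc2, found in dendritic spines, stayed between -0.159 and 0.151. Sdc3, the main neuronal syndecan, was measured on 2 arrays, at -3.11 and -1.45 at 1 and 6 h. The value at 1 h was the lowest of all 12586 spots measured on that array, and at 2 and 4 h the spot was listed at 0. That spot, 15769, lies in the run of low rows 15669 to 15873. Of the spots measured in that run, 16.6% were 2-fold negative at 1 h and 42.6% at 6 h, against 3.99% and 12.4% elsewhere.

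**Figure D2:**
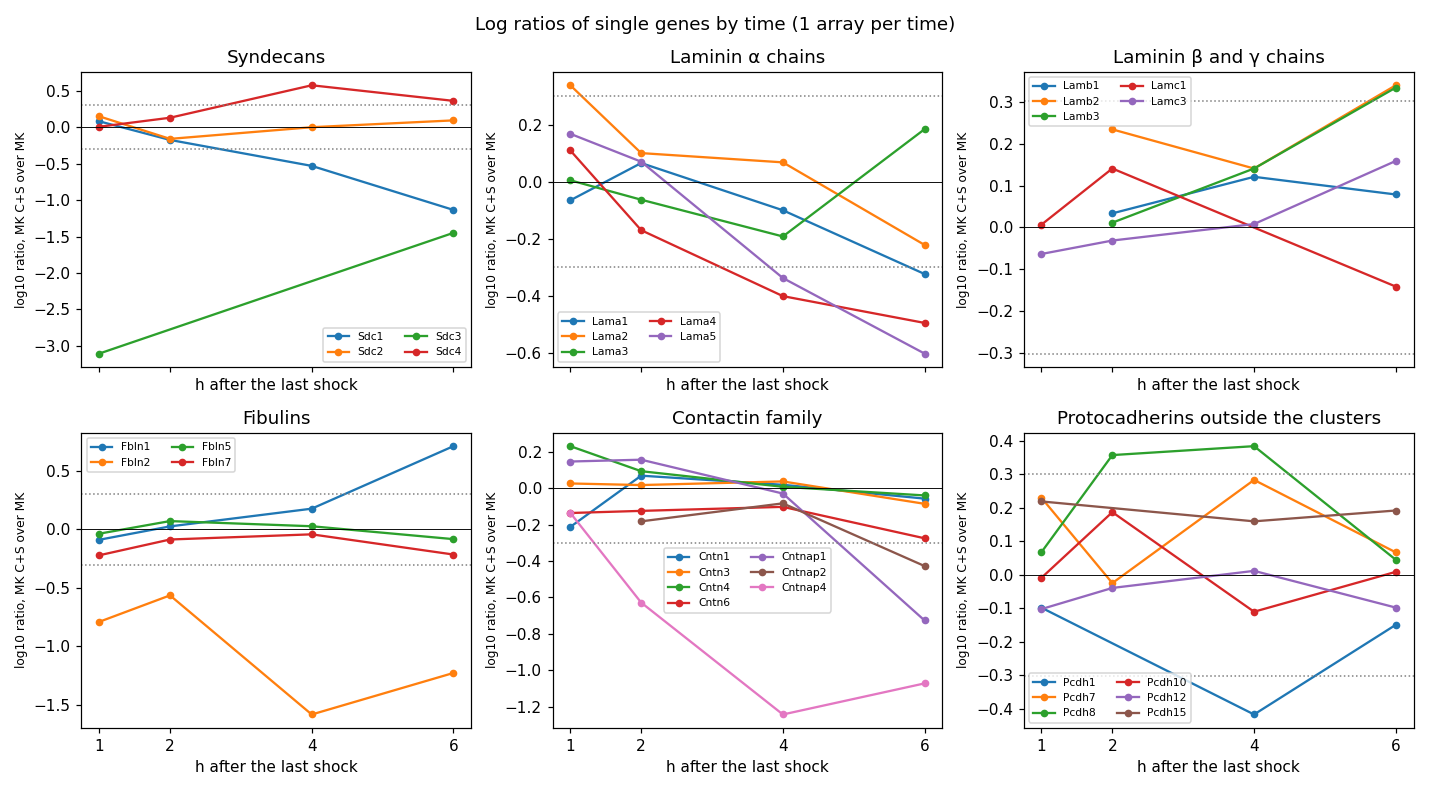
Log10 ratios of MK C+S over MK (y axis) by hours after the last shock (x axis) for single genes in 6 groups, 1 array per time, with dotted lines at 2-fold. Sdc1 and Sdc4 lie on opposite sides of 0 at 4 and 6 h, and Fbln2 and Cntnap4 lie furthest below 0 in their groups. At 6 h 4 of 5 laminin α chains are negative while 4 of 5 β and γ chains are positive, Lamc3 as the mean of 2 spots of opposite sign.

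The median of the integrin α subunits was lower on each later array, at 0.0744, 0.013, -0.0535 and -0.379 at 1, 2, 4 and 6 h. At 6 h 7 of 12 were 2-fold or more negative (11.7% of all genes were) and 2 positive (10.2% of all genes). That median was -0.176 as a mean over genes and -0.0643 when each spot was taken on its own, and several of these genes had spots that differed. Itgae, which pairs with β7 on lymphocytes in epithelia and binds E-cadherin, was at 0.427, -0.0283, -0.155 and -0.783, past 2-fold on the positive side at 1 h and on the negative side at 6 h. Its partner Itgb7 was at 0.109, 0.0939, -0.0302 and -0.438. Itgae and Itgb7 were both positive at 1 h and both past 2-fold negative at 6 h. The 1 spot of Itgae lies in the run of low rows 15669 to 15873, where 42.6% of measured spots were 2-fold negative at 6 h. Itga2, a collagen receptor subunit, was at 0.11, 0.204, 0.0555 and -0.8, and Itga3, a laminin receptor subunit, was at 0.176, 0.111, -0.0585 and -0.44, so both were past 2-fold at 6 h alone, on the negative side. Itga2 had 1 spot, whereas the Itga3 values at 1 and 2 h came from spot 7640 and that at 6 h from spot 12950, so its early and late values compare different spots.

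Itgav, the α subunit that pairs with several β subunits, stood on the other side. It lay at 0.162, -0.0407, 0.125 and 0.789 at 1, 2, 4 and 6 h, a 6.15-fold positive ratio at 6 h, and Itgax, a subunit of myeloid cells, was at 0.209, 0.299 and 0.635 at 2, 4 and 6 h. These were the 2 α subunits past 2-fold in the positive direction at 6 h. Itga8, a β1 partner that binds nephronectin, was at 0.0635, -0.291, -0.39 and -0.496, Itga2b, the platelet fibrinogen receptor subunit, at 0.00381, -0.0963, -0.404 and -0.485, and Itga6, a laminin receptor subunit, at -0.209, -0.127, -0.308 and -0.411. All of these were at 2-fold or more negative at 6 h as means of their spots, and all rest on spots that differ from each other.

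The genes with an integrin β symbol had medians close to 0, at 0.0225, 0.0305, 0.0328 and 0.0801 at 1, 2, 4 and 6 h. Itgb1, the most widely paired β subunit, lay at 0.00402, -0.0606, 0.0858 and 0.211. Itgb1bp2, known as melusin in muscle, was at -0.0644, 0.435, 0.354 and 0.229, past 2-fold at 2 and 4 h. Itgb2l, a relative of the leukocyte subunit β2, was at -0.031, 0.0631, -0.233 and -0.148 and stayed within 2-fold. Itgb4, the partner of Itga6, was at 0.000431, 0.209 and 0.368 at 2, 4 and 6 h, and Itgb3bp, a centromere protein despite its name, was at -0.148, -0.169 and -0.421 at 2, 4 and 6 h. At 6 h Itga6 and Itgb4 thus had opposite signs. Different spots of 1 gene in this set shared a sign in only 6 of 12 pairs on that array, so these signs cannot be read as a result about the pair.

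**Figure D3:**
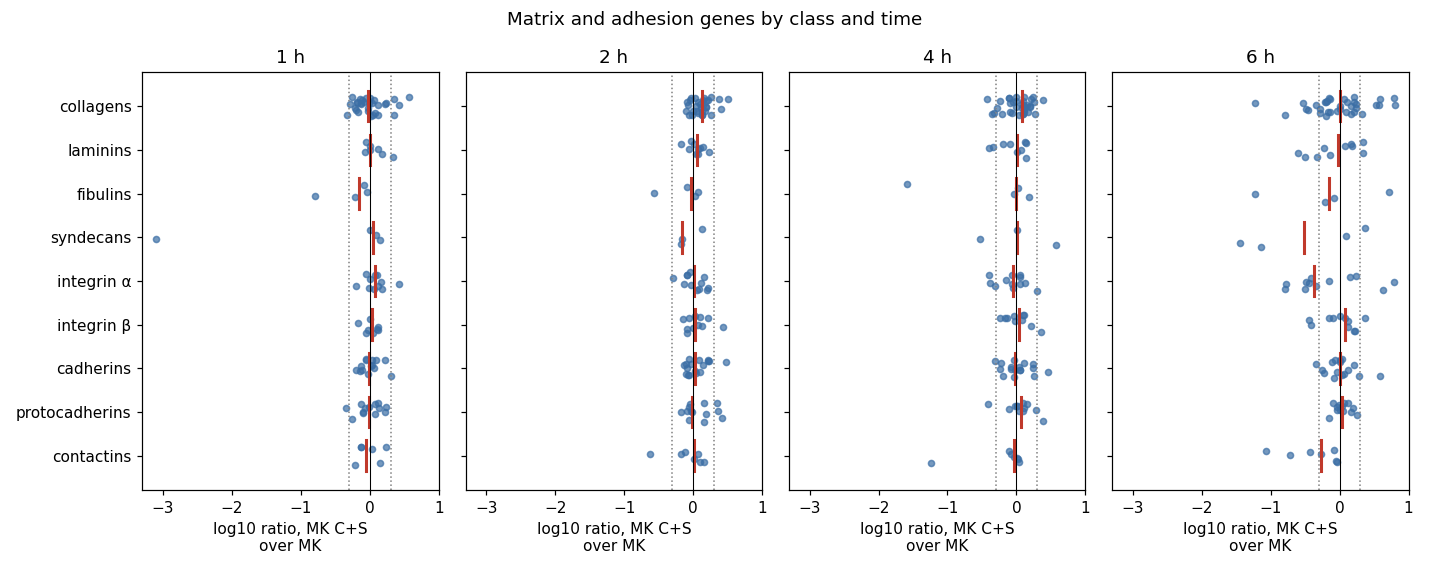
Log10 ratios of MK C+S over MK (x axis) for the genes of each class (rows) on each array (panels), 1 point per gene, with a red bar at the class median and dotted lines at 2-fold. Integrin α subunits, contactins and syndecans have the lowest medians at 6 h, while collagens have points on both sides, between -1.23 and 0.797.

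Cadherins join cells, the classical ones mostly by binding the same cadherin on the next cell, and the 17 genes with a cadherin symbol had medians close to 0, at -0.0101, 0.0214, -0.0184 and 0.00429 at 1, 2, 4 and 6 h. The 5 type I cadherins had a median of -0.047, -0.0936, -0.0362 and 0.118 and the 7 type II cadherins one of -0.0303, 0.0214, -0.0379 and -0.0718. Cadherins at 2-fold or more numbered 1, 1, 2 and 2 at 1, 2, 4 and 6 h, of 14, 17, 17 and 16 measured (8.47%, 6.58%, 7.07% and 21.9% of all genes). Cdh2, the N-cadherin of excitatory synapses, was at -0.124, -0.135, 0.103 and 0.118. Cdh15, the M-cadherin of muscle and cerebellum, was at -0.151, -0.101, -0.308 and -0.337, negative throughout and just past 2-fold at 4 and 6 h. Cdh17, a cadherin of liver and intestine, was at 0.307, 0.473 and 0.456 at 1, 2 and 4 h, past 2-fold wherever it was measured. Cdh3, the P-cadherin, was at 0.0302, 0.211, -0.0362 and 0.588, 3.87-fold positive on the last array. Cdh5, the cadherin of endothelial junctions, lay between -0.11 and -0.0184, from 1 spot at 1 h and as the mean of 2 spots later.

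Protocadherins also had medians near 0, at -0.00927, -0.017, 0.0679 and 0.0382 at 1, 2, 4 and 6 h, although the mean over genes at 2 h was 0.0872. At 2 h 3 of 13 were 2-fold positive (2.44% of all genes), namely Pcdh8, Pcdha10 and Pcdhga12, and at 6 h 0 of 13 were at 2-fold in either direction (21.9% of all genes). Pcdh8, called arcadlin in rat, where synaptic activity induces it in the hippocampus, was at 0.0673, 0.357, 0.384 and 0.0445. It was past 2-fold on the positive side at 2 and 4 h and near 0 at 1 and 6 h. Pcdhga12, of the γ cluster, was at 0.121, 0.339, 0.0984 and 0.165, positive on each array and past 2-fold at 2 h. Of the α cluster, Pcdha10 was at -0.069, 0.419, 0.116 and 0.125 and Pcdha12 at -0.348, -0.017, 0.0375 and 0.0382, each past 2-fold on 1 array. Genes of the α cluster differ in their first exon and share their last exons, so a spot may not separate them. Pcdha4 and Pcdha11 were measured on 1 array only, at 2 h.

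Contactins are lipid-anchored adhesion proteins of axons, and the contactin-associated proteins are their transmembrane partners at the node of Ranvier and at synapses. At 6 h 0 of 7 were positive, with a median of -0.275, and at 1 h 3 of 6 were, with a median of -0.055. Cntnap4, found in interneurons, was at -0.136, -0.629, -1.24 and -1.07 at 1, 2, 4 and 6 h, 17.5-fold negative at 4 h and past 2-fold from 2 h on. Cntnap1, the partner of Cntn1 beside the node, was at 0.147, 0.156, -0.0296 and -0.727, and Cntnap2, which holds potassium channels next to it, was at -0.182, -0.0834 and -0.428 at 2, 4 and 6 h. All 3 contactin-associated genes were at 2-fold or more negative at 6 h (11.7% of all genes). The 4 contactins proper lay closer to 0, with Cntn6 at -0.136, -0.125, -0.103 and -0.275 and Cntn4 at 0.231, 0.0933, 0.00754 and -0.0399. Cntn6 was negative on every array, and Cntn4 was positive except at 6 h.

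Over the 4 times, 0 of 84 genes measured on all arrays passed an adjusted p of 0.05, either in the mean or in the slope on hours (limma, Benjamini-Hochberg over 8553 genes, of which 0.0% passed in the mean and 0.0% in the slope). In limma's test of the mean, 16 of 84 had an unadjusted p under 0.05 (19.0%, against 11.4% of all genes). There were 7 positive (8.33%, against 4.26%) and 9 negative ones (10.7%, against 7.12%). The positive genes were Col13a1, Col14a1, Col5a2, Itgb1bp2, Pcdh8, Pcdhga12 and Sdc4, and the negative ones were Cdh15, Cntn6, Cntnap4, Col2a1, Fbln2, Fbln7, Itga2b, Itga6 and Itga8. Of the negative ones, Col2a1 and Fbln2 have their spots in the run of low rows 15669 to 15873, and Itga2b, Itga6 and Itga8 rest on spots that differ from each other. With each spot taken on its own, 12 spots had such a p. Leaving out the 4 h array gave 9 genes with such a p, and leaving out the 6 h array gave 8. These counts are given without the share of all genes in the same fits. Fbln2 had the lowest p of the 16 genes, with a mean of -1.04 ± 0.455 (SD over 4 times) and an adjusted p of 0.379 in limma. Cntnap4 averaged -0.77 ± 0.496 (limma adjusted p = 0.416), Sdc4 0.27 ± 0.252 (limma adjusted p = 0.43) and Pcdh8 0.213 ± 0.182 (limma adjusted p = 0.43). The error in this test is the spread between times, which also holds any change with time.

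The share of genes with a steady sign was near that of the whole array. The same sign on all 4 arrays was found for 18 of 84 genes (21.4%, against 21.8% of all genes), 9 positive (10.7%, against 10.1%) and 9 negative (10.7%, against 11.8%). Being at 2-fold or more the same way on at least 2 arrays was more frequent, with 17 of 115 genes (14.8%, against 5.57% of all genes). Of these, 5 were positive (Cdh17, Col7a1, Itgb1bp2, Pcdh8 and Sdc4) and 12 negative (the 11 genes negative at both 4 and 6 h, and Sdc3). Among the negative ones, Col2a1, Fbln2 and Sdc3 have their spots in the run of low rows 15669 to 15873. Itga2b and Itga6 were 2-fold negative through 1 spot each, and no spot of Itga8 was so on 2 arrays. Only 2 genes, Col11a1 and Itgae, were past 2-fold in opposite directions on different arrays (1.74%, against 2.22%).

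In limma's slope on hours, 23 of 84 genes had an unadjusted p under 0.05 (27.4%, against 14.6% of all genes), 3 with a positive slope (3.57%, against 4.64%) and 20 with a negative one (23.8%, against 9.97%). The negative slopes came from 6 collagens, 3 laminins, 6 integrin α subunits, Itgb7, Cdh20, Cntnap1, Cntnap4 and Sdc1, and the positive ones from Fbln1, Col14a1 and Itgav. Of the 6 integrin α slopes, those of Itga2b, Itga3, Itga4 and Itga8 rest on spots that differed in sign or were not the same at all times, as their values by spot show, and those of Itga2 and Itgae on 1 spot each. The spots of Itgae and of the collagen Col2a1 lie in the run of low rows 15669 to 15873. Sdc1 had the steepest negative slope, -0.236 log10 units per h (SE 0.028, limma adjusted p = 0.106), with a lower value at each later time. Itgae came next with -0.217 (SE 0.0351, limma adjusted p = 0.113), then Cntnap4, Itga2 and Cntnap1 with -0.189, -0.18 and -0.173. Lama5 had -0.161 (SE 0.0268, limma adjusted p = 0.113). Fbln1 had the steepest positive slope, 0.153 (SE 0.0313, limma adjusted p = 0.131). Without the last array 10 genes of this set had an unadjusted limma p under 0.05, given here without the share of all genes in that fit. Without the 4 h array, a limma fit with 1 residual degree of freedom gave 9 genes with an adjusted p under 0.05, namely Cntnap1, Cntnap4, Col14a1, Col1a2, Fbln1, Itga2, Itgae, Lama5 and Sdc1, among 399 of all genes. Without the 1, 2 or 6 h array the count was 0. All 23 slopes had the same sign whichever array was left out, but their sizes moved. Without the 6 h array 12 of the 23 were smaller by over 1.5 times and 1, that of Cntnap4 at -0.36, was larger by over 1.5 times. Among the smaller ones Itgav was at 0.001, Itga2 at -0.0262, Col14a1 at 0.0339, Cntnap1 at -0.0636 and Fbln1 at 0.087. Without the 1 h array 3 were smaller by over 1.5 times, with Cntnap4 at -0.111, Col4a2 at -0.0537 and Itga8 at -0.0512, and Itgav was larger, at 0.207.

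**Figure D4:**
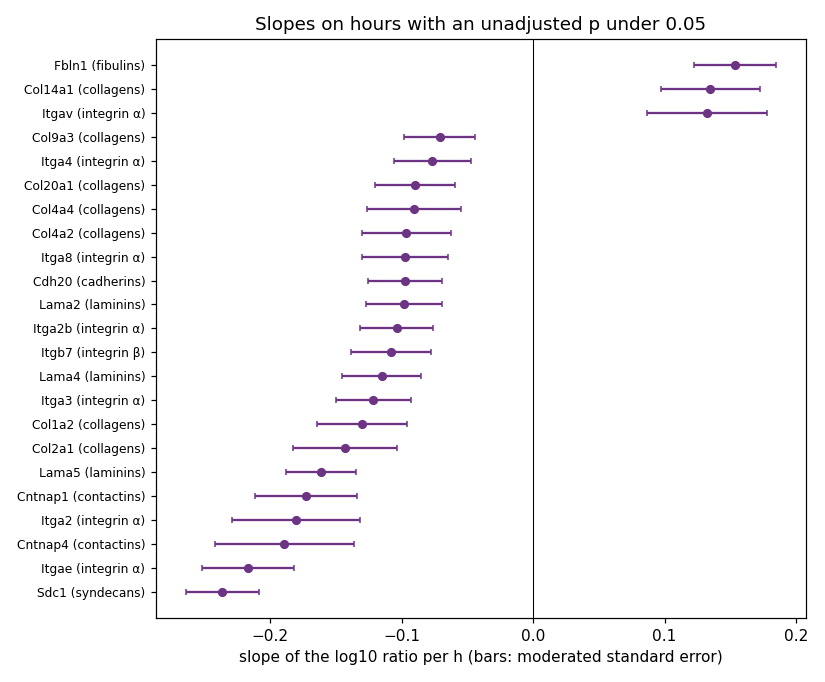
Slope of the log10 ratio of MK C+S over MK per hour (x axis, points, with bars for limma's moderated standard error) for the 23 genes with an unadjusted p under 0.05, over 4 arrays. Of these slopes 20 are negative, with Sdc1 at -0.236 the lowest and Fbln1 at 0.153 the highest, and none passed after adjustment.

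Genes with more than 1 spot allowed different spots of a gene to be compared on the same array, and these often differed. Of the 117 genes, 101 had 1 spot and 16 had 2 or 3. Different spots of a gene on an array had the same sign in 3 of 9 pairs at 1 h, 3 of 9 at 2 h, 7 of 15 at 4 h and 6 of 12 at 6 h, against 52.6%, 52.7%, 54.0% and 53.3% of the pairs of all genes. Their median absolute difference was 0.275, 0.177, 0.0837 and 0.340 log10 units, against 0.144, 0.144, 0.132 and 0.231 for all genes. Where a spot was not measured on an array, the mean of a gene rests on other spots there. For Itga2b, spot 17513 gave 0.165, -0.942 and -0.984 at 1, 4 and 6 h, while spot 4521 gave -0.158, -0.0963, 0.133 and 0.0136 at 1, 2, 4 and 6 h. The negative mean of Itga2b at 4 and 6 h thus came from 1 of its spots. For Itga6, spot 15238 gave -0.0715, -0.556 and -0.687 at 1, 4 and 6 h, spot 17000 gave -0.127, -0.0602 and -0.135 at 2, 4 and 6 h, and spot 9976 gave -0.347 at 1 h. All measured Itga6 spots were negative, with 2-fold or more in 1 spot at 4 and 6 h. For Itga8, spot 16774 gave 0.0635, -0.291, -0.39 and 0.109, and spot 10698 was measured at 6 h only, at -1.1. For Itga3, spot 7640 gave 0.176, 0.111 and 0.0102 at 1, 2 and 4 h, and spot 12950 gave -0.127 and -0.44 at 4 and 6 h. Itga4, named here because its spots disagree, gave 0.428, 0.0147, -0.183 and -0.699 in spot 9502 and -0.216, -0.184, 0.0573 and 0.00658 in spot 13818. The spots of Itga4 had opposite signs on each array.

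**Figure D5:**
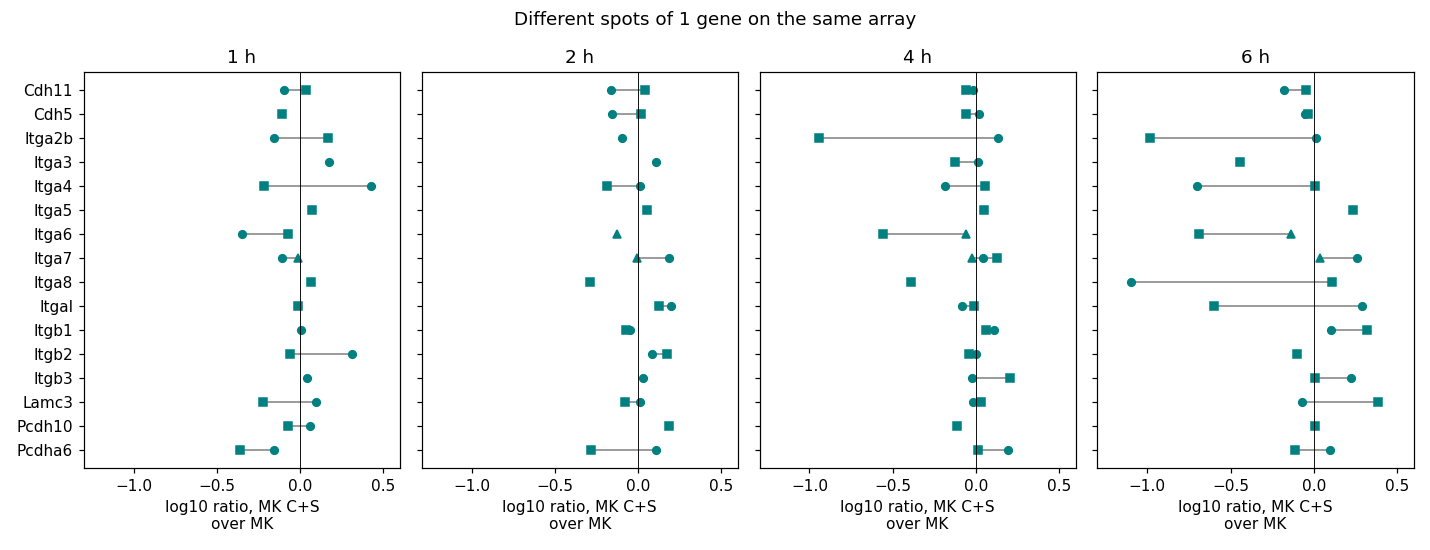
Log10 ratios of MK C+S over MK (x axis) of the different spots of 1 gene, joined by a line, on each array (panels), for the 16 genes with 2 or 3 spots. Spots of Itga2b at 4 and 6 h and of Itga8 and Itgal at 6 h lie furthest apart.

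As an alternative chosen after seeing the data, a run of rows was left out. The run of 200 neighbouring rows of the deposited table with the highest share of 2-fold negative values had spot numbers 15669 to 15873. Of the spots measured in that run, 16.6%, 16.0%, 15.1% and 42.6% were 2-fold or more negative at 1, 2, 4 and 6 h, against 3.99%, 4.91%, 4.92% and 12.4% elsewhere. The run held 5 spots of these genes, for Itgae, Col2a1, Sdc3, Itga5 and Fbln2, of which Itga5 was positive on each array. Without these rows the counts at 2-fold were 8, 9, 16 and 35 at 1, 2, 4 and 6 h, in place of 11, 10, 18 and 39, given here without the share of all genes. What the run stands for was not tested.

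Other genes of the matrix and of adhesion were counted in 4 lists. Of 27 other matrix proteins on the array, such as proteoglycans and thrombospondins, 0 of 22 measured at 1 h were past 2-fold (8.47% of all genes). At 2 h 1 of 27 was (6.58% of all genes), and 4 of 27 were at 4 h and at 6 h (7.07% and 21.9% of all genes). In the mean, 0 positive and 2 negative of 22 had an unadjusted limma p under 0.05 (4.26% and 7.12% of all genes). Ecm1, which binds matrix proteoglycans, had the largest mean in size among them and was at -0.0397, -0.0565, -0.408 and -0.81 at 1, 2, 4 and 6 h. Among 30 enzymes that process or cut matrix, 1 positive and 0 negative of 29 had such a p in the mean. In the slope 2 positive and 5 negative did (4.64% and 9.97% of all genes). Timp1, a metalloproteinase inhibitor, was at -0.156, -1.24, 0.224 and -0.989, but its spot 17645 gave -0.823, -2.45 and -1.64 at 1, 2 and 6 h while spot 1859 gave 0.511, -0.0338, 0.224 and -0.341. Among 20 integrin adaptors 2 positive and 1 negative of 18 had such a p in the mean, and Fyn, a kinase at adhesion sites and synapses, was at -0.242, -0.385, -0.129 and -0.194. Among 19 catenins and partners of cadherins 1 positive and 2 negative of 14 did. Nectin3, an adhesion protein of the puncta where axons meet dendrites, was at -0.445, -0.364, -0.415 and -0.233, with spot 17709 at -1.28, -1.33, -1.28 and -0.208 and its other spots between -0.534 and 0.212. No gene of these lists had an adjusted limma p under 0.05.

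Markers of vessel, meningeal, choroid plexus and ependymal cells also lay off 0 on some arrays. Endothelial and mural markers had a median of -0.0977, -0.145, -0.12 and -0.062 at 1, 2, 4 and 6 h, and Cldn5, a tight junction protein, was at -0.461, -0.808, -0.129 and 0.00314. Leptomeningeal and fibroblast markers, a list that includes Col1a1, Col1a2 and Col3a1, had a median of 0.0192, 0.0916, -0.00762 and -0.00106, with 9 of 11 positive at 2 h, the time when 24 of 31 collagens were positive, 2 counts that share genes, and Mgp, a vascular and meningeal matrix protein, was at 0.437, 0.0426, 0.213 and 0.462. Choroid plexus and ependyma markers had a median of 0.448, -0.0403, -0.017 and -0.115, with 5 of 6 positive at 1 h. From each list the gene named is that with the largest mean in size among those measured on every array, which need not follow its list. Kl, which encodes klotho, was at -0.235, -0.338, -0.218 and -0.261 and was the exception in its list at 1 h. Its spot 13730 was at -1.91, -0.86, -0.738 and -0.498, spot 2114 at 0.486, -0.017, 0.0881 and -0.132 and spot 2148 at 0.715, -0.137, -0.00373 and -0.153. The endothelial and mural median was thus negative on each array, whereas the leptomeningeal and fibroblast median was close to 0 at 4 and 6 h and the choroid plexus and ependyma median at 4 h. The part of these cells in the collagen and laminin values was not tested.

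Markers of the cells of the CA1 tissue itself were counted too. Astrocyte markers were at -0.00953, 0.0484, 0.0493 and 0.0972 at 1, 2, 4 and 6 h, with Glul, glutamine synthetase, at -0.12, 0.151, 0.498 and 0.257, and microglia markers at 0.0597, -0.0689, 0.125 and 0.124, with Fcer1g, an Fc receptor chain, at 0.0796, 0.268, 0.146 and 0.29. Oligodendrocyte markers had a median of -0.00415, 0.0371, -0.0899 and -0.0134, and Mog, a glycoprotein of the myelin surface, was at -0.00492, -0.0484, -0.0899 and -0.336, with spot 7387 at -0.0155, 0.186 and -0.819 at 2, 4 and 6 h, spot 1614 at -0.0585, 0.0169, -0.248 and 0.0164 and spot 5208 at 0.0487, -0.147, -0.207 and -0.205. For pyramidal neuron markers the median was -0.00187, 0.0075, 0.0538 and 0.0869, with 4 of 5 positive at 6 h. Neurod6, a transcription factor of these neurons, was at -0.011, -0.236, -0.366 and -0.256, the exception in its list at 6 h. Interneuron markers, with a median of -0.0968, 0.102, 0.00511 and 0.0195, had 0 of 7 positive at 1 h and 6 of 7 at 2 h. Pvalb, parvalbumin, was at -0.137, -0.144, -0.028 and -0.115, the exception in its list at 2 h. Of the listed markers, 9 of 9 for astrocytes, 8 of 9 for microglia and 7 of 8 for oligodendrocytes were on the array. For pyramidal neurons 5 of 8 were, and for interneurons 7 of 7. A ratio at a spot does not show that its gene was expressed, as signal over background was not examined. The median furthest from 0 among these 5 lists was 0.125, of microglia markers at 4 h.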

How the data were processed

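The 4 arrays carry total RNA of CA1, 1 per time, and samples were grouped by time per the labels. Each deposited value is a log ratio of 1 spot, read here as log10. How the authors corrected background and normalized, and which log base and direction they used, was not given in the sources used here. The precision is limited by the number of arrays. Exact zeros were read as not measured, each array was centred on its median, and spots of a gene were averaged. The platform annotation gave 1 gene for 13738 spots, several for 52 and none for 2491. All 136 Entrez IDs of these spots matched RefSeq (GRCm38.p6, used for names and promoter windows), and 0 symbols changed. With limma 3.58.1 (R 4.3.3, statmod 1.5.0; lmFit, eBayes, two-sided), the mean over times and the slope on hours were fitted to all 8553 genes with 4 values. The fits had 3 and 2 residual degrees of freedom, and p-values were Benjamini-Hochberg adjusted. The size of the estimates was checked on simulated data with independent errors. That check does not bear on the p-values of these arrays, which share spots and dye orientation. Nothing says that RNA came from separate cultures or animals within a time, so p-values measure only the spread between these 4 arrays.

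The genes, the role groups and the lists (other matrix proteins, matrix enzymes, integrin adaptors, catenins, and endothelial, leptomeningeal, choroid plexus, astrocyte, microglia, oligodendrocyte, pyramidal neuron and interneuron markers) were chosen with earlier results of these data known. Named genes were, by rule, the highest and lowest mean of each class, the 4 highest and 4 lowest per array, genes at 2-fold the same way on 2 or more arrays, genes with 1 sign and an unadjusted p under 0.05 in the mean, and the 4 slopes each way with the largest moderated t. Others were named after their values were seen, as partners or further members of a class. Leaving out a run of low rows, the slopes without each array and the counts of unadjusted p were chosen after seeing the data. Alternatives covered the fold threshold, zeros, centring, spot summary, log base, scaling, a running median over 51 neighbouring spots, weights, robust fits, the time scale and each array left out.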

Additional observations from a re-analysis of the deposited data

Results flagged for a closer look

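Col11a1, a minor fibrillar collagen, lay past 2-fold in opposite directions on different arrays, at 0.372 at 2 h and -0.461 at 6 h, with -0.0336 at 1 h and 0.0919 at 4 h. Itgae, the α subunit that pairs with β7, did so too, at 0.427 at 1 h and -0.783 at 6 h. Such opposite values were no more frequent in this set than over all genes (1.74%, against 2.22%). The Itgae spot lies in the run of rows 15669 to 15873, where 42.6% of measured spots were 2-fold negative at 6 h. Apart from the slope on hours the difference between the times was not tested, since each time has 1 array and each gene 1 spot.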

How the results depend on the processing

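Whether a gene counts as 2-fold depended on the threshold and on the assumed log base. In place of 11, 10, 18 and 39 genes at 1, 2, 4 and 6 h, there were 29, 28, 39 and 63 at 1.5-fold and 3, 3, 4 and 24 at 3-fold. If the values were base 2 logs, 1, 0, 2 and 5 genes would be at 2-fold, and if natural logs, 2, 0, 2 and 13. These counts are given without the share of all genes under the same setting, so they show only how the counts of this set moved. In the mean over times 0 genes of this set passed an adjusted p of 0.05 in limma under each alternative, and among all genes 2 passed with array weights and 2 with the running median removed. In the slope the count ranged from 0 to 9 over the fits without 1 array, with the 9 from the fit without the 4 h array, which left 1 residual degree of freedom. Counts at an unadjusted limma p under 0.05 were 16 in the mean, or 9 when the 4 h array and 8 when the 6 h array was left out, and 23 in the slope, or 10 when the 6 h array was left out. No paired analysis was possible because each ratio already pairs MK C+S with MK on 1 array, as the test of the mean uses it, and no further block exists.

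Class medians that moved by more than the spread were as follows, and the cause was not tested beyond the construction of each alternative. The collagen median at 2 h was 0.0686 with zeros kept as a ratio of 1 and 0.0631 with the running median removed, and at 4 h it was 0.0239 as a mean and 0.0341 with the running median removed. As means over genes, the laminins were at -0.0617 at 4 h, the fibulins at -0.284, -0.138 and -0.355 at 1, 2 and 4 h, the syndecans at -0.716 at 1 h, the protocadherins at 0.0872 at 2 h, the contactins at -0.0858 and -0.199 at 2 and 4 h, and the integrin α subunits at -0.176 at 6 h. By spot, the integrin α subunits were at -0.0643 at 6 h and the protocadherins at 0.0461 at 2 h. With zeros kept, the integrin α subunits were at -0.25 at 6 h and the protocadherins at 0.0121 at 4 h, and with the running median removed the protocadherins were at -0.00624.

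The sign of the mean over times turned when 1 array was left out for 30 of 84 genes, each with a mean within the spread between times. Of the genes named by rule these were Cntnap1 (-0.203 to 0.0911 over the fits without 1 array), Col27a1 (-0.0753 to 0.121), Col4a2 (-0.0214 to 0.178), Itgae (-0.322 to 0.0811), Lama2 (-0.0182 to 0.169) and Pcdha12 (-0.109 to 0.0196). Without replicate arrays, a dye swap or intensities, no value at 1 time could be set against an error of its own, and signal over background was not examined.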
